A study of Mus musculus with 36 samples.

Results

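Gene expression of mouse embryonic stem cells treated with the compound BPK25 was compared with that of cells given its solvent DMSO at day 4 of the experiment, in 3 libraries of each. The comparison covers every gene of the deposited count table, 55335 in all, of which 17394 (31.4%) had enough counts to be tested. The 6 libraries belong to a set of 36, made from polyadenylated RNA of 3 treatments (BPK25, auxin written as IAA, and DMSO) at days 0, 2, 4 and 6, with 3 libraries in each of the 12 groups. BPK25 at day 4, IAA at day 4 and DMSO at day 4 are groups of the same labelled cell line, named mESC, and the culture protocol in the labels applies to all of them. That protocol names a serum replacement medium with the self-renewal factor LIF and, typically, gelatin and irradiated fibroblast feeder cells, which make collagens. The labels used here do not give the genotype or clone of the cells, the dose of BPK25, the point from which days are counted, or whether the 3 libraries of a group came from separate cultures. If they did not, the p-values reflect technical variation alone.

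BPK25 is known here by its code name only. It was described in human T cells as a compound that lowers proteins of the NuRD complex, with which the series title is concerned. NuRD joins an ATP-driven chromatin remodeller (CHD3, CHD4 or CHD5) to the histone deacetylases HDAC1 and HDAC2, and in embryonic stem cells it is known for holding down genes of early lineages and for tuning pluripotency genes. IAA is the plant hormone used to degrade proteins that carry an auxin-inducible degron. Foreign compounds are sensed in mammalian cells by the aryl hydrocarbon receptor AHR, which switches on cytochrome P450 genes, and by NRF2, which switches on genes of glutathione and thioredoxin metabolism. Stress and growth signals switch on immediate early genes within minutes, and tension in the actin skeleton does so for genes bound by SRF with its cofactors MRTF and by TEAD with YAP.

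The 6 libraries held 6769688 to 11983431 counts over genes. Within BPK25 and within DMSO, the 6 pairs of replicate libraries varied more than counting error alone gives, at 1.709 to 2.071 for chi-square over its degrees of freedom. The mean profile of BPK25 at day 4 lay 0.537 from that of DMSO at day 4 by root mean square distance over genes on the log2 scale of CPM, which are counts scaled to a common library total. Single replicate libraries lay 0.260 to 0.303 apart. Of all groups, the closest profile was that of IAA at day 2 (0.443). BPK25 at days 2 and 6 lay at 0.690 and 0.605, and DMSO at days 2 and 6 at 0.711 and 0.618. These distances also span days, so they cannot separate an unusual BPK25 group at day 4 from a difference between days. No value used here checks that label, and whether it is right is in doubt; BPK25 below means the libraries so labelled. Defining markers of embryonic stem cells were present in all 6 libraries, with a summed level of 884 to 907 CPM over 9 genes in BPK25 and 941 to 1007 CPM in DMSO. The 20 fibroblast feeder markers summed to 167 to 178 CPM in BPK25 and 150 to 163 CPM in DMSO, and none of them was at 0 in all 6 libraries. Of the 18 tested, 6 rose and 6 fell, and their part in the matrix and contractile results was not tested.

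Here a gene rose or fell when edgeR's quasi-likelihood test, fitted on all 36 libraries, gave an adjusted p under 0.05. By that rule 4562 genes (26.2%) rose in BPK25 and 4654 (26.8%) fell. These shares are the background for every count of a gene list against DMSO below. For counts against IAA at day 4, the background was 27.2% higher and 27.1% lower in BPK25. A change of at least 2-fold was reached by 1081 (6.21%) genes upward and by 686 (3.94%) downward. Most calls were small, since 2405 of the higher and 3023 of the lower genes changed by less than 1.5-fold. At least 4-fold changes numbered 205 upward and 139 downward. The median log2 fold change of all genes tested was -0.01. For 9947 genes (57.2%) the 3 BPK25 and the 3 DMSO libraries did not overlap. In what follows, ± after a log2 fold change is its approximate standard error, ± after a level in CPM is the SD over 3 libraries, and CPM is not divided by transcript length, so levels are compared between groups and not between genes.

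**Figure D1:**
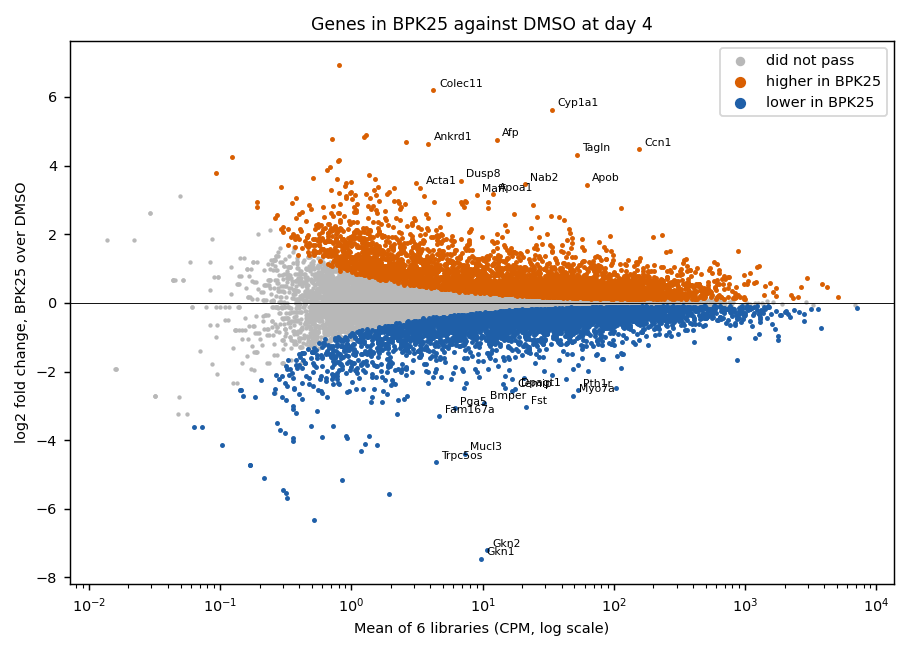
Log2 fold change of each tested gene in BPK25 over DMSO at day 4 (y axis) against its mean level over the 6 libraries in CPM (x axis, log scale). Coloured points passed the test, grey points did not, and the labelled genes are the 12 highest and the 12 lowest of the named genes.

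Genes that respond to foreign compounds rose in BPK25. Among the AHR regulators and targets, 13 of 18 tested members rose and 3 fell, with a median log2 fold change of 0.64. Cyp1a1, the cytochrome P450 gene by which AHR activity is usually read, stood at 66.7, 64.1 and 69 CPM in the BPK25 libraries, against 1.54, 1.33 and 1.03 CPM in the DMSO libraries. All 3 BPK25 libraries lay far above the DMSO libraries, a log2 fold change of 5.63 ± 0.14 (adjusted p = 2.83e-34). Cyp1b1, a second P450 gene under AHR, was measured at 24.1, 24.5 and 25.4 CPM in the BPK25 libraries, against 4.33, 6.10 and 4.85 CPM in the DMSO libraries (2.26 ± 0.12, log2). Tiparp encodes an ADP-ribosyltransferase that limits AHR, and it had 124, 133 and 130 CPM in the BPK25 libraries, against 46.8, 44.1 and 42.7 CPM in the DMSO libraries. Ahr itself averaged 9.25 ± 0.804 CPM in BPK25 and 4.66 ± 0.316 CPM in DMSO, a log2 fold change of 0.98 ± 0.13, while its partner Arnt did not pass the test at 90.8 ± 6.48 CPM in BPK25 and 86.6 ± 6.74 CPM in DMSO. The members that fell were Ugt1a6a, Ugt1a6b and Ugt1a7c, glucuronosyltransferase genes of 1 cluster that share exons, so their reads cannot be assigned to 1 of them.

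A Cyp1a1 promoter is shown because this gene had the second highest log2 fold change among the 12 highest named. GCGTG, the core of the site that AHR binds, was searched on both strands of the RefSeq promoters (GRCm38.p6, 300 bases around each start) and is in capitals below. It lies 54 bases before the start of Cyp1a1. Whether AHR binds this match was not tested, and bases outside these 300 were not searched.
Cyp1a1, chr9:57697363-57697662, plus strand: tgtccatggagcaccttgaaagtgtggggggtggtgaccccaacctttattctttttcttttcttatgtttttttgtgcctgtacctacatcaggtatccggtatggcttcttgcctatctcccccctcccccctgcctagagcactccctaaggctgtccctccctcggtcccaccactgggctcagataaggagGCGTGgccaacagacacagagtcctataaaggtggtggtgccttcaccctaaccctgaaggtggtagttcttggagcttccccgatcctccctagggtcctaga
These 5 letters were in 8 of the 13 members with a promoter in the table (61.5%), of which Arnt did not rise. That share is near the 54.5% of tested genes with a promoter that had them. They were in 32.4% of all 32851 promoters. The list was assembled from known AHR regulators and targets, so its share is a property of the list.

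NRF2 targets and glutathione genes rose in 32 of 45 cases and fell in 3, or in 5 without DMSO replicate 3, with a median log2 fold change of 0.45. Gstm1, a glutathione transferase gene, stood at 83.4, 73.8 and 70.4 CPM in the BPK25 libraries, against 20.5, 19.9 and 21.3 CPM in the DMSO libraries (1.89 ± 0.09, log2). Srxn1, whose product repairs oxidised peroxiredoxins, stood at 74.5, 75.5 and 72.6 CPM in the BPK25 libraries, against 21.3, 23.1 and 22.2 CPM in the DMSO libraries. In both genes the lowest BPK25 library was far above the highest DMSO library. Hmox1, which encodes the haem-degrading enzyme heme oxygenase 1, averaged 104 ± 6.32 CPM in BPK25 and 40.8 ± 3.95 CPM in DMSO (1.34 ± 0.07, log2), and Mafg, which encodes a small MAF partner of NRF2, averaged 141 ± 1.47 CPM in BPK25 and 53.9 ± 1.04 CPM in DMSO (1.39 ± 0.05, log2). Ephx1, a microsomal epoxide hydrolase gene, had a log2 fold change of 1.23 ± 0.18. Abundant members that did not pass were Gpx4, the lipid peroxide reductase gene, at 122 ± 7.58 CPM in BPK25 and 132 ± 7.42 CPM in DMSO, and Pgd of the pentose phosphate pathway at 129 ± 3.41 CPM in BPK25 and 125 ± 2.26 CPM in DMSO. Gpx4 passed without BPK25 replicate 3 or DMSO replicate 3, at -0.16 on the log2 scale in both cases.

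Of the metallothioneins and their partners, 5 of 5 tested members rose. Mt1 and Mt2 encode metallothioneins, which bind zinc and copper. Mt1 had 130, 124 and 139 CPM in the BPK25 libraries, against 78.8, 64 and 67.3 CPM in the DMSO libraries, and Mt2 had 229, 195 and 220 CPM in the BPK25 libraries, against 116, 116 and 127 CPM in the DMSO libraries. Exons of Gm45774 overlap 73.5% of the exon length of Mt2, so part of its count can belong to that gene. Slc30a1, the zinc exporter gene, stood at 74, 70.9 and 76.5 CPM in the BPK25 libraries, against 13.5, 18.9 and 17.8 CPM in the DMSO libraries, a log2 fold change of 2.15 ± 0.08 (adjusted p = 2.69e-27). The metal-sensing factor gene Mtf1 changed less, by 0.31 ± 0.07. In BPK25 over IAA at day 4, Mt1 and Mt2 had log2 fold changes of 1.72 and 1.77, and both passed the test.

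Immediate early genes rose in 18 of 19 cases and none fell, with a median log2 fold change of 1.96. These genes encode short-lived transcription factors and feedback enzymes. The AP-1 factor gene Fosl2 stood at 58.8, 58.3 and 51.6 CPM in the BPK25 libraries, against 8.85, 10.7 and 9.84 CPM in the DMSO libraries. Its relatives Junb and Fos stood at 29.2, 30.3 and 30.1 CPM in the BPK25 libraries, against 5.10, 5.34 and 4.26 CPM in the DMSO libraries, and at 9.28, 8.29 and 10.5 CPM in the BPK25 libraries, against 1.64, 1.33 and 1.76 CPM in the DMSO libraries. Egr1, a zinc finger factor gene that growth factor signalling switches on, stood at 42.4, 43.4 and 45.9 CPM in the BPK25 libraries, against 7.98, 7.82 and 7.05 CPM in the DMSO libraries (2.51 ± 0.10, log2). Each of these 4 genes had its lowest BPK25 library above its highest DMSO library. Maff, a small MAF gene, had 16.2 ± 2.96 CPM in BPK25 and 1.78 ± 0.156 CPM in DMSO (3.13 ± 0.20, log2), and Nab2, whose product restrains EGR factors, had 38.6 ± 0.483 CPM in BPK25 and 3.37 ± 0.973 CPM in DMSO (3.46 ± 0.13, log2), with 35.7% of its exon length shared with Gm16229. Ier5 was the member that did not pass, at 11.2 ± 1.08 CPM in BPK25 and 9.67 ± 1.32 CPM in DMSO, and without DMSO replicate 3 it passed at 0.29 on the log2 scale. The list's median was 0.08, 0.02 and 0.05 in BPK25 against DMSO of days 0, 2 and 6.

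Of 19 FGF and ERK feedback genes, 9 rose and 4 fell. Dusp5, a phosphatase gene that ERK signalling induces, had 68.3, 65.6 and 75.6 CPM in the BPK25 libraries, against 14.6, 9.25 and 16.5 CPM in the DMSO libraries. Its exons overlap Gm50394 over 22.1% of their length. Dusp6 had 68.7, 72 and 73.5 CPM in the BPK25 libraries, against 24.1, 23.3 and 23.6 CPM in the DMSO libraries, so both phosphatase genes lay above DMSO in every BPK25 library. Dusp8, a phosphatase gene for the JNK and p38 kinases, averaged 12.5 ± 1.21 CPM in BPK25 and 1.08 ± 0.359 CPM in DMSO (3.56 ± 0.21, log2). Dusp4 (1.37 ± 0.10) and Spry4 (0.98 ± 0.17), an ERK pathway inhibitor gene, also rose on the log2 scale. Spry2 did not pass the test at 12.5 ± 1.01 CPM in BPK25 and 14.2 ± 2.55 CPM in DMSO, and the ligand gene Fgf10 fell by 1.19 ± 0.11 on the log2 scale.

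**Figure D2:**
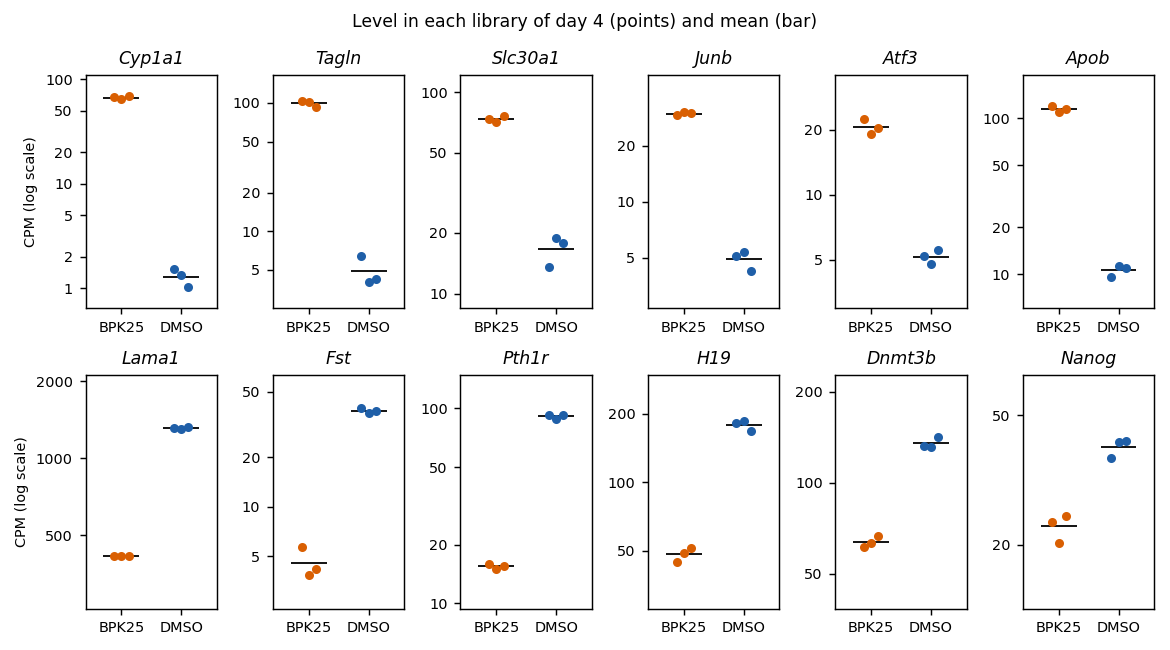
Level of 12 named genes in each of the 3 BPK25 (left, orange) and 3 DMSO (right, blue) libraries of day 4, in CPM on a log scale, with a bar at the mean. The 6 upper genes are higher in every BPK25 library than in any DMSO library and the 6 lower genes are lower in every BPK25 library.

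Genes of the integrated stress response, which the factor ATF4 drives when translation is curbed, also rose, 19 of 26 with 2 that fell, or 1 without any 1 of the BPK25 libraries or without DMSO replicate 1. Atf3, a factor gene that also counts as immediate early, stood at 22.5, 19.1 and 20.3 CPM in the BPK25 libraries, against 5.19, 4.77 and 5.58 CPM in the DMSO libraries. Atf5 stood at 38.3, 36.6 and 31.3 CPM in the BPK25 libraries, against 17, 15.5 and 16 CPM in the DMSO libraries, and Trib3, a pseudokinase gene, at 17.3, 19.7 and 18 CPM in the BPK25 libraries, against 8.47, 6.67 and 7.49 CPM in the DMSO libraries. Aldh1l2, a mitochondrial folate enzyme gene, averaged 21.3 ± 0.945 CPM in BPK25 and 10 ± 0.999 CPM in DMSO (1.11 ± 0.10, log2). Ddit3, which encodes the stress factor CHOP, has 2 gene IDs at 1 locus, and these gave 1.26 ± 0.06 and 1.49 ± 0.10 on the log2 scale from reads that may be shared. Shmt2 (72.2 ± 1.67 CPM in BPK25 and 72.8 ± 5.48 CPM in DMSO) and Ddit4 (19.8 ± 0.596 CPM in BPK25 and 21.9 ± 0.940 CPM in DMSO) did not pass. Against IAA at day 4, 24 of the 26 members of the list, which count both Ddit3 IDs, were higher in BPK25 and 1 was lower. Over all genes tested the shares were 27.2% and 27.1%. In IAA over DMSO of day 4 the list had a median log2 fold change of -0.41, so IAA itself lay below DMSO. An Atf3 promoter is shown with TGATGNAA, the element that ATF4 and C/EBP factors bind, in capitals, found on either strand.
Atf3, chr1:191183284-191183583, minus strand: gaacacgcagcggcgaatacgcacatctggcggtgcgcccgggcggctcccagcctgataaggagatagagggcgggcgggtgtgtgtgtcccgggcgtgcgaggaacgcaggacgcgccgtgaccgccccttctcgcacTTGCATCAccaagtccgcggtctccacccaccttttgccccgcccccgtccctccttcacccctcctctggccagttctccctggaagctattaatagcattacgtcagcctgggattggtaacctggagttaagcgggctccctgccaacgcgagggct
The match lies 110 bases before the start. TGATGNAA on either strand was found for 8 of the 22 members with a promoter in the table, of which Chac1 and Pck2 did not rise. It was in 3.97% of all promoters, and 2.76% of tested genes had it. The list was assembled from known genes of this response, so its share of elements is a property of the list.

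The unfolded protein response of the endoplasmic reticulum and the heat shock response moved in both directions. Of 19 unfolded protein response genes, 7 rose and 8 fell. Herpud1 had a log2 fold change of 0.92 ± 0.10 and the co-chaperone gene Dnajc3 fell by 0.89 ± 0.05. Hspa5, the main chaperone gene of that compartment, did not pass the test at 878 ± 9.16 CPM in BPK25 and 936 ± 19 CPM in DMSO, but did without DMSO replicate 1 (-0.11, log2), in a fit of only the 9 libraries of day 4 and by DESeq2's Wald test (both -0.09). Of 20 heat shock genes, 5 rose and 8 fell, with Hsp90aa1 at 3710 ± 124 CPM in BPK25 and 2247 ± 85.3 CPM in DMSO and the small heat shock gene Cryab at 2.28 ± 0.111 CPM in BPK25 and 9.56 ± 0.881 CPM in DMSO.

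Of 27 genes of p53 and its targets, 14 rose and 5 fell, and 3 fell without BPK25 replicate 1. Cdkn1a, the inhibitor of cyclin-dependent kinases, stood at 38.8, 38.3 and 41.3 CPM in the BPK25 libraries, against 16.5, 16.2 and 19.4 CPM in the DMSO libraries. Mdm2, which encodes the ligase that degrades p53, stood at 325, 371 and 310 CPM in the BPK25 libraries, against 170, 181 and 178 CPM in the DMSO libraries. Both were above DMSO in every library, with log2 fold changes of 1.21 ± 0.08 and 0.93 ± 0.05. Pmaip1, a pro-death BCL2 family gene, had 0.85 ± 0.07, whereas Bax did not pass at 46.3 ± 1.33 CPM in BPK25 and 48.9 ± 0.964 CPM in DMSO. Among 14 inflammatory genes, 6 rose, among them the NF-kB genes Relb (1.41 ± 0.12) and Nfkbia (1.02 ± 0.05), and 4 fell, or 2 without BPK25 replicate 3.

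Actin and smooth muscle genes that SRF binds rose in 26 of 30 tested members and fell in 2, with a median log2 fold change of 0.92. Tagln, which encodes the actin-binding protein transgelin, stood at 104, 102 and 92.9 CPM in the BPK25 libraries, against 6.45, 4.00 and 4.26 CPM in the DMSO libraries (4.32 ± 0.10, log2, adjusted p = 2.62e-36). Exons of Gm48529 overlap 62.4% of its exon length, and Gm48529 itself averaged 3.66 ± 0.449 CPM in BPK25 and 1.17 ± 0.267 CPM in DMSO. Cnn1, the calponin gene of smooth muscle, stood at 18.6, 17.9 and 20.4 CPM in the BPK25 libraries, against 2.60, 2.67 and 3.23 CPM in the DMSO libraries. Cnn2 stood at 52.1, 49.9 and 47.4 CPM in the BPK25 libraries, against 10.6, 14.5 and 11.5 CPM in the DMSO libraries, and Myl9, a myosin light chain gene, at 20.1, 25 and 21.3 CPM in the BPK25 libraries, against 5.96, 5.82 and 5.43 CPM in the DMSO libraries. The skeletal actin gene Acta1 averaged 6.12 ± 0.707 CPM in BPK25 and 0.596 ± 0.128 CPM in DMSO (3.36 ± 0.27, log2). Fhl2, a LIM domain gene, had 1.79 ± 0.20. The cofactor gene Mrtfa did not pass at 35.6 ± 0.639 CPM in BPK25 and 34.7 ± 2.82 CPM in DMSO, nor did Filip1l at 8.55 ± 0.119 CPM in BPK25 and 9.87 ± 0.416 CPM in DMSO. Against IAA at day 4, 10 members were higher in BPK25, 10 were lower and 10 did not pass, with 1.11 for Tagln, -0.85 for Myl9 and -0.08 for Cnn2, which did not pass, on the log2 scale.

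SRF binds the CArG box, so the promoters of 3 SRF list members that rose are shown with that box in capitals, found on either strand.
Acta1, chr8:123894726-123895025, minus strand: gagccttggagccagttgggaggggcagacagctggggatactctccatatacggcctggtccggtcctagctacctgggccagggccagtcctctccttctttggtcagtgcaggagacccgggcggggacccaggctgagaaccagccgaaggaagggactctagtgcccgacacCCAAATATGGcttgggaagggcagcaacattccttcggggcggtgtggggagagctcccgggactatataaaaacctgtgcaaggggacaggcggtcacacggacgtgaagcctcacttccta
Cnn2, chr10:79988350-79988649, plus strand: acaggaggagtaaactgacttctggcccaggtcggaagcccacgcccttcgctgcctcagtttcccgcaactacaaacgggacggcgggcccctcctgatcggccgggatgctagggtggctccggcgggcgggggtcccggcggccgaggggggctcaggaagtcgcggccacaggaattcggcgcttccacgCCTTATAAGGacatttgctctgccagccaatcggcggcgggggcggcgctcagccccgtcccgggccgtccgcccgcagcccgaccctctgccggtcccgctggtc
Myl9, chr2:156775214-156775513, plus strand: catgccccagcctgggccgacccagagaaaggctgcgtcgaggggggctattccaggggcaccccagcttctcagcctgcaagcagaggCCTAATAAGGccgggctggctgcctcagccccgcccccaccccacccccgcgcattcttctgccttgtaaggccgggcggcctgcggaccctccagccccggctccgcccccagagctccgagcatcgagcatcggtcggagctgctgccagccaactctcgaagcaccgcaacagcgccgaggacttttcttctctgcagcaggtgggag
The boxes lie 73, 56 and 161 bases before the starts of Acta1, Cnn2 and Myl9. A CArG box was in 10 of the 26 list members with a promoter in the table, against 1.63% of all promoters and 1.69% of tested genes. The list was assembled from known SRF targets, so its share of boxes is a property of the list. None of 13 immediate early genes with a promoter held one in this window.

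Targets of YAP and genes of the Hippo pathway split, with 14 of 31 higher and 12 lower. Ccn1, which encodes the matrix protein CYR61, stood at 304, 292 and 292 CPM in the BPK25 libraries, against 12, 13.5 and 14.5 CPM in the DMSO libraries. Ccn2 stood at 49.4, 51.2 and 50.2 CPM in the BPK25 libraries, against 16.7, 18.3 and 17.8 CPM in the DMSO libraries, and Thbs1, the thrombospondin 1 gene, at 44.8, 39.6 and 41.9 CPM in the BPK25 libraries, against 5.87, 5.15 and 6.76 CPM in the DMSO libraries. Amotl2, whose product holds YAP in the cytoplasm, stood at 354, 387 and 366 CPM in the BPK25 libraries, against 95.1, 88.8 and 98 CPM in the DMSO libraries. Each of these 4 genes had its 3 BPK25 libraries above its 3 DMSO libraries, and exons of Gm15270 overlap 23.2% of the exon length of Ccn2. Ankrd1 averaged 7.42 ± 0.895 CPM in BPK25 and 0.272 ± 0.179 CPM in DMSO (4.64 ± 0.34, log2), and 5.32 ± 0.44 without DMSO replicate 2. Amotl1 (125 ± 5.84 CPM in BPK25 and 132 ± 7.0 CPM in DMSO) and Myof (106 ± 1.67 CPM in BPK25 and 103 ± 2.38 CPM in DMSO) did not pass. The TEAD site GGAATG is in capitals in the promoters of the 2 YAP targets with the largest changes, on either strand.
Ccn1, chr3:145649936-145650235, minus strand: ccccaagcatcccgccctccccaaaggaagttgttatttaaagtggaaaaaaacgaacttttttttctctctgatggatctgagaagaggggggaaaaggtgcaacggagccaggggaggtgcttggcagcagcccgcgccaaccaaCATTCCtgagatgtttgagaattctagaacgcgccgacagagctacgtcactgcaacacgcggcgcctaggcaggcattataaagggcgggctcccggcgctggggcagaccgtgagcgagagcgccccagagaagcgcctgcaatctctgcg
Ankrd1, chr19:36119795-36120094, minus strand: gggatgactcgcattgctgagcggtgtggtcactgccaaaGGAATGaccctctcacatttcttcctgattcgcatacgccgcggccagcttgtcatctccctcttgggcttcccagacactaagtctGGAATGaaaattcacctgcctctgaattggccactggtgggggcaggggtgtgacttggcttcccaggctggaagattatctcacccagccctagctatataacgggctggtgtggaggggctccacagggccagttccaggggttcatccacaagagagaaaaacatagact
GGAATG was found for 12 of the 22 members with a promoter in the table. Among these 12, Yap1, Tead3, Crim1 and Ptpn14 did not rise. It was in 14.7% of all promoters, and 14.6% of tested genes had it. The list was assembled from known YAP targets and Hippo genes, so its share of sites is a property of the list.

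Cavin1, a coat protein gene of caveolae, stood at 180, 212 and 197 CPM in the BPK25 libraries, against 30.3, 29.7 and 25.6 CPM in the DMSO libraries (2.76 ± 0.06, log2). Ahnak, a very large membrane scaffold gene, averaged 315 ± 5.29 CPM in BPK25 and 83.4 ± 2.59 CPM in DMSO, and S100a13, a calcium-binding protein gene, fell, averaging 4.58 ± 0.644 CPM in BPK25 and 24 ± 2.22 CPM in DMSO. Within the list of annexins, S100 and caveola genes the directions were mixed, 5 up and 8 down of 22. Simple epithelial keratins and junction genes rose in 16 of 20 cases and fell in 1. Cldn4, a tight junction claudin gene, stood at 25.7, 24.2 and 24.9 CPM in the BPK25 libraries, against 5.58, 6.48 and 5.14 CPM in the DMSO libraries. Krt18, which encodes a keratin of simple epithelia, stood at 87.6, 85 and 95.3 CPM in the BPK25 libraries, against 24.2, 24.3 and 25.6 CPM in the DMSO libraries, and its partner Krt8 at 82.8, 81.8 and 80.7 CPM in the BPK25 libraries, against 36.7, 34.6 and 34.7 CPM in the DMSO libraries. The claudin gene Cldn7 (2.1 ± 0.17) and the keratin gene Krt19 (1.36 ± 0.13) rose too, whereas Tjp1 of tight junctions did not pass at 275 ± 3.89 CPM in BPK25 and 263 ± 3.21 CPM in DMSO. Against IAA at day 4, 10 of these 20 genes were higher and 8 lower in BPK25, with 1.39 for Cldn4 and -1.75 for Krt19 on the log2 scale.

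Lama1, Lamc1 and Sparc, which parietal endoderm of the early embryo makes in large amounts, fell, and the laminin chain gene Lama5 rose. Lama1 stood at 414, 416 and 417 CPM in the BPK25 libraries, against 1310, 1305 and 1322 CPM in the DMSO libraries, a fall of 1.66 ± 0.03 on the log2 scale (adjusted p = 5.32e-39). Sparc stood at 775, 782 and 791 CPM in the BPK25 libraries, against 1584, 1599 and 1586 CPM in the DMSO libraries. Lamc1 averaged 1139 ± 26.9 CPM in BPK25 and 2390 ± 111 CPM in DMSO and Col4a1, a collagen chain of the same sheet, averaged 1249 ± 60 CPM in BPK25 and 2104 ± 9.85 CPM in DMSO (-0.75 ± 0.04, log2). Lama5 averaged 111 ± 2.46 CPM in BPK25 and 44 ± 3.85 CPM in DMSO (1.33 ± 0.06, log2). Over the whole list 11 of 20 rose and 8 fell. Matrix proteases and inhibitors rose in 6 and fell in 8 of 18, with the inhibitor gene Timp2 at 15.6, 16.3 and 13.9 CPM in the BPK25 libraries, against 65.6, 70.1 and 78.3 CPM in the DMSO libraries, and the urokinase gene Plau at 40.4, 36.7 and 40.6 CPM in the BPK25 libraries, against 12.4, 11.4 and 12.8 CPM in the DMSO libraries. Cemip, whose product cleaves hyaluronan, averaged 4.79 ± 0.596 CPM in BPK25 and 28.5 ± 0.754 CPM in DMSO (-2.57 ± 0.10, log2).

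Secreted proteins of visceral endoderm, the outer layer that feeds the early embryo, rose in 17 of 18 and fell in 1, the median log2 fold change being 1.87. Apob, the structural protein gene of lipoproteins, stood at 119, 109 and 114 CPM in the BPK25 libraries, against 9.62, 11.3 and 10.9 CPM in the DMSO libraries. Afp, the fetal serum protein gene, stood at 27, 24.1 and 22.9 CPM in the BPK25 libraries, against 1.06, 0.763 and 0.881 CPM in the DMSO libraries. Apoa1 stood at 19.1, 23.9 and 21.8 CPM in the BPK25 libraries, against 1.35, 3.05 and 2.94 CPM in the DMSO libraries, and the thyroid hormone carrier gene Ttr at 12.3, 15.5 and 12.2 CPM in the BPK25 libraries, against 1.73, 1.81 and 1.47 CPM in the DMSO libraries. Trf, the transferrin gene, and Rbp4, the retinol carrier gene, had log2 fold changes of 2.17 ± 0.10 and 1.78 ± 0.14. Of the transcription factor and early genes of the endoderm, 6 of 17 rose and 8 fell. Gata4 stood at 10.4, 10.1 and 10.6 CPM in the BPK25 libraries, against 29.6, 28.9 and 30.7 CPM in the DMSO libraries, and Sox17 at 18.2, 19.3 and 17.9 CPM in the BPK25 libraries, against 38.9, 35.4 and 37.9 CPM in the DMSO libraries. Hnf4a, a factor of apolipoprotein genes, rose by 0.93 ± 0.16 on the log2 scale, while Foxa2 did not pass at 17.4 ± 0.615 CPM in BPK25 and 15.6 ± 2.32 CPM in DMSO. The 6 marker genes of visceral endoderm summed to 524 to 538 CPM in BPK25, to 890 to 905 in IAA and to 248 to 262 in DMSO. Of these 6, 5 rose and 1 fell. Afp, Ttr, Apoa1 and Apob are among both the markers and the list above, so the sum is no separate measure of cell content. The part of visceral endoderm cells in these results was not tested. In bulk libraries like these, more or fewer cells of a type and more or less RNA per cell cannot be told apart.

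**Figure D3:**
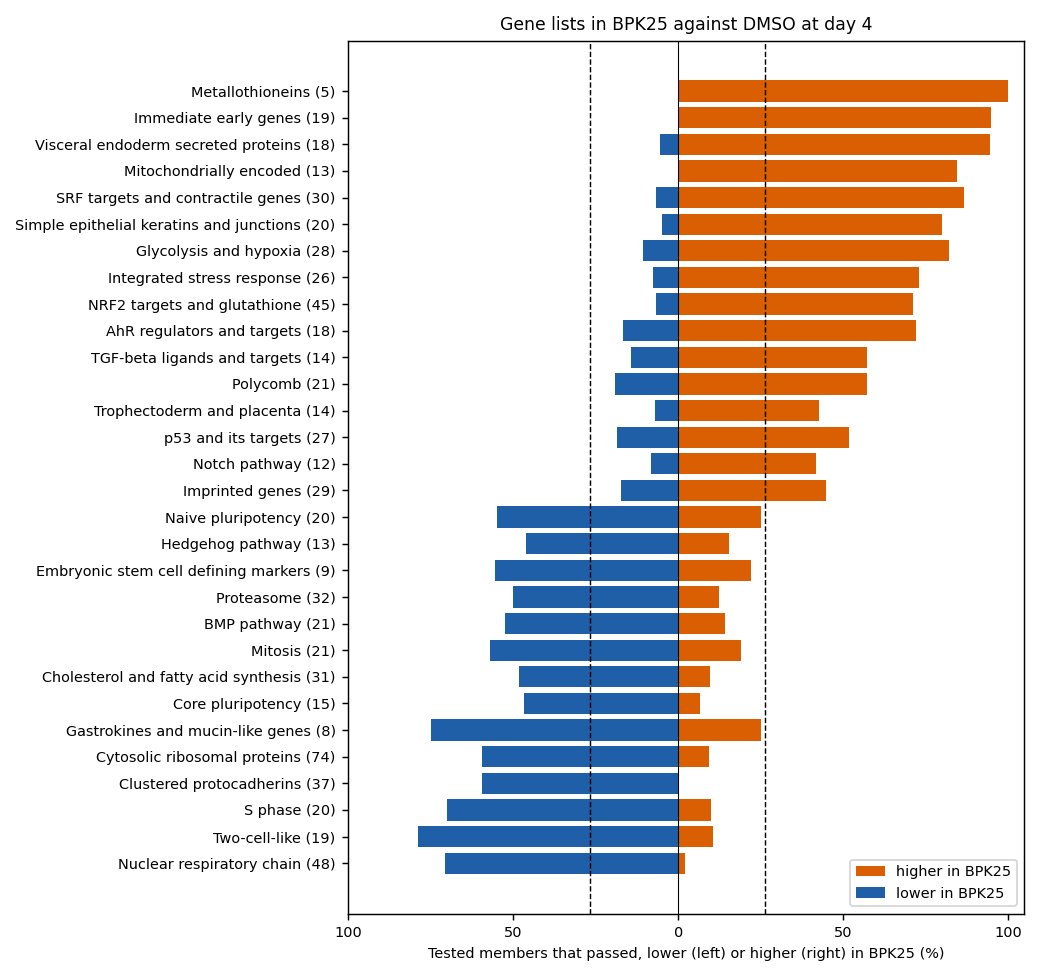
Share of the tested members that rose (orange, right of 0) or fell (blue, left of 0) in BPK25 against DMSO at day 4, in percent, with the number tested beside each name, for the 30 lists with the largest difference between the shares, a choice made after their values were seen. Dashed lines mark the background over all genes tested, 26.2% and 26.8%.

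The lowest log2 fold changes were in gastrokine genes, which encode secreted proteins known from the stomach. Of 8 gastrokine and mucin-like genes, 2 rose and 6 fell, and 1 rose without BPK25 replicate 3 or without DMSO replicate 1. Gkn1, Gkn2 and Gkn3 lie side by side on chromosome 6 (GRCm38), with Gkn1 at chr6:87345650-87350942 and Gkn2 at chr6:87373357-87379497. Gkn1, a gastrokine gene, had 3 counts over the 3 BPK25 libraries and 541 over the 3 DMSO libraries. The pooled rate was 198-fold lower in BPK25, with an exact 95% interval of 67.6 to 965 for counting error only. Its log2 fold change was -7.46 ± 0.29 with all libraries and -8.25 ± 0.38 without BPK25 replicate 3. Gkn2 had 0.249, 0.132 and 0 CPM in the BPK25 libraries, against 22.7, 19.6 and 21.7 CPM in the DMSO libraries, a log2 fold change of -7.21 ± 0.27, and of -8.31 ± 0.37 and -6.62 ± 0.29 without BPK25 replicate 1 and replicate 3. Mucl3, a mucin-like gene, had 0.746, 0.658 and 0.555 CPM in the BPK25 libraries, against 12.4, 15.9 and 13.5 CPM in the DMSO libraries. The log2 fold changes of Gkn2 at days 0, 2 and 6 were 0.13, -0.19 and -0.09, and none of these passed the test. The list also fell in IAA at day 4, with a median log2 fold change over DMSO of -2.99, against -3.57 in BPK25. In BPK25 against IAA at day 4, 1 of the 8 genes was higher, 2 were lower and 5 did not pass. Muc13, a transmembrane mucin gene, rose, averaging 6.42 ± 0.601 CPM in BPK25 and 1.03 ± 0.188 CPM in DMSO. Pga5, a pepsinogen gene, fell by 3.07 ± 0.19 on the log2 scale.

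Among other named genes with low log2 fold changes, Fst encodes follistatin, which binds activins, and it stood at 5.64, 3.82 and 4.16 CPM in the BPK25 libraries, against 39.6, 37.1 and 37.9 CPM in the DMSO libraries (-3.04 ± 0.11, log2). Bmper, a BMP-binding protein gene, stood at 2.32, 3.03 and 2.13 CPM in the BPK25 libraries, against 19.2, 19.1 and 16 CPM in the DMSO libraries. Pth1r, the parathyroid hormone receptor gene, known from parietal endoderm, stood at 15.9, 15 and 15.5 CPM in the BPK25 libraries, against 92.1, 88.5 and 92.8 CPM in the DMSO libraries. Myo7a, an unconventional myosin gene of hair cells, stood at 13.2, 12.8 and 12.9 CPM in the BPK25 libraries, against 84.8, 84.8 and 85.9 CPM in the DMSO libraries. In each of the 4 genes the 3 BPK25 libraries were below the 3 DMSO libraries. Genes at this end were named only if their libraries did not overlap, so this gap follows from the choice and is no separate result. Trpc5os averaged 0.344 ± 0.225 CPM in BPK25 and 8.50 ± 0.501 CPM in DMSO. Fam167a averaged 0.890 ± 0.255 CPM in BPK25 and 8.47 ± 0.926 CPM in DMSO. Dpagt1, which starts the sugar chain of glycoproteins, was set apart by 1 DMSO library, with 5.39, 5.79 and 5.46 CPM in the BPK25 libraries, against 70.9, 9.15 and 9.99 CPM in the DMSO libraries. Its log2 fold change was -2.52 ± 0.39, against -0.79 ± 0.16 without DMSO replicate 1. Colec11, a collectin gene and the highest by fold change among the named genes, had 19.9, 4.74 and 0.370 CPM in the BPK25 libraries, against 0.0962, 0.0953 and 0.147 CPM in the DMSO libraries, again with 1 library far from the others. It gave 6.19 ± 1.00 with all libraries and 4.21 ± 1.11 without BPK25 replicate 1, on the log2 scale.

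Of 20 genes of the naive state, 11 fell and 5 rose, and of 15 core genes 7 fell and 1 rose. Pou5f1, which encodes OCT4, stood at 383, 368 and 376 CPM in the BPK25 libraries, against 369, 339 and 374 CPM in the DMSO libraries, and the difference of 0.06 ± 0.04 did not pass the test. Nanog stood at 23.5, 20.3 and 24.5 CPM in the BPK25 libraries, against 37, 41.5 and 41.7 CPM in the DMSO libraries, and Sox2 at 98.2, 92.5 and 95.6 CPM in the BPK25 libraries, against 131, 135 and 148 CPM in the DMSO libraries. These 2 factor genes were lower in every BPK25 library, with log2 fold changes of -0.79 ± 0.08 and -0.52 ± 0.06. Klf5 fell by 0.67 ± 0.06 and Prdm14 by 1.11 ± 0.20. Of the genes of the formative and primed states 4 rose and 5 fell, with the DNA methyltransferase gene Dnmt3b at 61.2, 62.9 and 66.7 CPM in the BPK25 libraries, against 132, 131 and 142 CPM in the DMSO libraries. Genes of the rare 2-cell-like state fell in 15 of 19, Zscan4d for instance averaging 75.7 ± 1.55 CPM in BPK25 and 122 ± 1.11 CPM in DMSO. Zscan4 and Usp17l members are near copies of each other, so these counts are not independent.

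In the BMP pathway 3 of 21 rose and 11 fell. The ligand genes Bmp2 and Bmp4 fell by 0.96 ± 0.18 and 0.75 ± 0.16 on the log2 scale, while the receptor gene Bmpr1a rose by 0.57 ± 0.04. Id3, a direct target of BMP signalling, averaged 3.04 ± 0.325 CPM in BPK25 and 5.42 ± 0.610 CPM in DMSO, and Id2, another target, averaged 34.4 ± 1.65 CPM in BPK25 and 24.8 ± 1.45 CPM in DMSO. The signal carriers Smad1 (20 ± 0.742 CPM in BPK25 and 19.1 ± 2.38 CPM in DMSO) and Smad5 (70.3 ± 2.24 CPM in BPK25 and 64.9 ± 4.02 CPM in DMSO) did not pass. Among Nodal pathway genes 3 rose and 4 fell of 15. Hedgehog genes fell in 6 and rose in 2 of 13, the receptor gene Ptch1 falling by 0.46 ± 0.05. Wnt genes rose in 7 and fell in 4 of 26, the feedback target Axin2 rising by 0.92 ± 0.11. Of 17 retinoic acid genes 7 rose and 6 fell, and Cyp26b1, which degrades retinoic acid, stood at 198, 202 and 213 CPM in the BPK25 libraries, against 97.1, 94.8 and 89 CPM in the DMSO libraries.

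Neural genes fell in 8 and rose in 4 of 18, and 5 fell without BPK25 replicate 3 or without DMSO replicate 2. Among them was Pax6, the eye and forebrain factor gene, at 11.4, 12 and 11 CPM in the BPK25 libraries, against 39.2, 40.4 and 36.3 CPM in the DMSO libraries. Of 19 mesoderm genes 6 rose and 5 fell, and of 34 Hox genes 7 rose and 9 fell. Hoxb5 fell by 1.00 ± 0.12 and Hoxa3 rose by 1.06 ± 0.08. Among vessel and heart genes, Pecam1, an adhesion gene that embryonic stem cells also make, stood at 222, 219 and 209 CPM in the BPK25 libraries, against 94.6, 93 and 91.5 CPM in the DMSO libraries, whereas Cdh5, the endothelial cadherin gene, fell by 1.73 ± 0.18. Imprinted genes rose in 13 and fell in 5 of 29. H19, a maternally expressed long RNA, stood at 44.3, 48.9 and 51.3 CPM in the BPK25 libraries, against 182, 186 and 169 CPM in the DMSO libraries, and its neighbour Igf2, the paternally expressed growth factor gene, at 25.1, 25.4 and 26.9 CPM in the BPK25 libraries, against 10.6, 8.87 and 7.93 CPM in the DMSO libraries. H19 fell and Igf2 rose, with log2 fold changes of -1.90 ± 0.07 and 1.48 ± 0.10. Igf2 shares 62.8% of its exon length with Gm49394. Kcnq1ot1, a long antisense RNA, rose by 1.71 ± 0.09 and Nnat fell by 1.99 ± 0.09. Clustered protocadherins fell in 22 of 37 and none rose, and all that fell were gamma members, which share their last exons, so their values are close to 1 measurement.

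Glycolysis and hypoxia genes rose in 23 of 28 and fell in 3, with a median of 0.56. In IAA over DMSO of day 4 their median was 0.62, and 7 were higher and 18 lower in BPK25 than in IAA. Aldoa, an aldolase gene, stood at 823, 795 and 803 CPM in the BPK25 libraries, against 364, 340 and 369 CPM in the DMSO libraries. Ldha, the lactate dehydrogenase gene, stood at 303, 307 and 310 CPM in the BPK25 libraries, against 151, 144 and 150 CPM in the DMSO libraries, and the glucose transporter gene Slc2a3 at 568, 581 and 572 CPM in the BPK25 libraries, against 279, 288 and 273 CPM in the DMSO libraries. All 3 genes were higher in every BPK25 library, with log2 fold changes of 1.18 ± 0.04, 1.05 ± 0.04 and 1.03 ± 0.04. Nuclear genes of the respiratory chain fell in 34 of 48 and rose in 1, with falls of 0.65 ± 0.05 for Ndufb10 and 0.60 ± 0.06 for Cox7c on the log2 scale. The mitochondrially encoded genes rose in 11 of 13 and none fell. Their median was 0.46, and 0.84 in IAA over DMSO of day 4, while the respiratory chain genes had -0.24 and -0.28. All genes of the mitochondrial chromosome, a wider set than these 13, made up 2.06%, 1.86% and 1.96% of counts in the BPK25 libraries. In the DMSO libraries they made up 1.41%, 1.45% and 1.35%. Cytosolic ribosomal protein genes fell in 44 of 74 with a median of -0.13, Rps28 falling by 0.97 ± 0.12. With the trend on transcript length removed, an alternative added after the data were seen, 33 of them fell. In IAA over DMSO of day 4 the ribosomal protein genes had a lower median of -0.49, and 72 of 74 were higher in BPK25 than in IAA. Proteasome subunits fell in 16 and rose in 4 of 32, the catalytic subunit gene Psmb5 averaging 18.2 ± 0.150 CPM in BPK25 and 58.5 ± 8.76 CPM in DMSO. Cholesterol and fatty acid synthesis genes fell in 15 and rose in 3 of 31, and the desaturase gene Scd1 was among those that rose, at 100 ± 2.29 CPM in BPK25 and 49.8 ± 4.51 CPM in DMSO.

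Replication genes fell in 14 of 20 and rose in 2, or in 1 without any 1 of the 6 libraries other than BPK25 replicate 3, with a median of -0.30. Cdc6, which loads the replicative helicase, fell by 0.62 ± 0.06, and the helicase gene Mcm7 by 0.47 ± 0.05. Mitosis genes fell in 12 and rose in 4 of 21, where Cdk1 averaged 202 ± 24.4 CPM in BPK25 and 288 ± 14.7 CPM in DMSO and Mki67, the proliferation marker, averaged 1218 ± 31.1 CPM in BPK25 and 831 ± 40.1 CPM in DMSO. Ccnd1, the cyclin D1 gene, stood at 7.71, 8.02 and 6.01 CPM in the BPK25 libraries, against 20.3, 24 and 20.3 CPM in the DMSO libraries, a fall of 1.59 ± 0.11 on the log2 scale. Its exons overlap those of LTO1 over 23.4% of their length.

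Of the 18 NuRD subunit and partner genes, 7 rose and 7 fell. Among the remodellers, Chd4, the main one in embryonic stem cells, did not pass at 1250 ± 48 CPM in BPK25 and 1258 ± 39.2 CPM in DMSO, Chd3 had a log2 fold change of 0.20 ± 0.05, and Chd5, the neural form, stood at 37.4, 40.9 and 38.5 CPM in the BPK25 libraries, against 13.8, 16.3 and 16.7 CPM in the DMSO libraries. Hdac1 averaged 106 ± 2.97 CPM in BPK25 and 150 ± 6.31 CPM in DMSO (-0.50 ± 0.05, log2) and Hdac2 did not pass at 245 ± 16.1 CPM in BPK25 and 259 ± 20.7 CPM in DMSO. The MTA scaffolds gave 0.14 ± 0.04 for Mta1, -0.58 ± 0.05 for Mta2 and -0.31 ± 0.04 for Mta3. Of the histone chaperones, Rbbp4 fell by 0.46 ± 0.05 and Rbbp7 rose by 0.38 ± 0.04. The GATA zinc finger subunits both rose, Gatad2a by 0.39 ± 0.04 and Gatad2b by 0.77 ± 0.05. For the methyl-binding subunits, Mbd3 had -0.12 ± 0.04 and Mbd2 did not pass at 59.9 ± 2.26 CPM in BPK25 and 64.9 ± 7.39 CPM in DMSO. The partner genes Sall4 (-0.46 ± 0.05) and Cdk2ap1 (-0.17 ± 0.07) fell, Zfp296 rose (0.63 ± 0.17) and Sall1 did not pass at 68.8 ± 2.30 CPM in BPK25 and 73.6 ± 5.05 CPM in DMSO. The calls of Chd3, Mbd3 and Cdk2ap1 did not hold with the trend on transcript length removed, that of Mbd3 also not without a filter on low counts or without BPK25 replicate 1 or 3, and that of Cdk2ap1 also not without a filter, in a fit restricted to the compared libraries, or without BPK25 replicate 3 or DMSO replicate 3. Mbd2 passed without DMSO replicate 1 and Sall1 without DMSO replicate 2, at -0.16 and -0.16 on the log2 scale. Among genes of CTCF and cohesin, 6 of 18 rose and 8 fell. Ctcf, whose product halts loop extrusion by cohesin, stood at 423, 408 and 413 CPM in the BPK25 libraries, against 315, 315 and 301 CPM in the DMSO libraries (0.42 ± 0.04, log2), and Wapl, which releases cohesin, at 598, 595 and 584 CPM in the BPK25 libraries, against 329, 330 and 324 CPM in the DMSO libraries. Uhrf1, needed to copy DNA methylation, fell by 0.79 ± 0.04.

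Small nucleolar RNA genes were looked at after their values were seen. Of 121 tested small nucleolar RNA genes, which guide chemical changes of ribosomal RNA and sit in introns of host genes, 69 rose and 1 fell, with a median log2 fold change of 0.95. Their share of all counts was 0.0426%, 0.0432% and 0.0427% in the BPK25 libraries, 0.0320%, 0.0324% and 0.0312% in the IAA libraries and 0.0226%, 0.0225% and 0.0213% in the DMSO libraries of day 4. In DMSO the share was 0.0361% to 0.0380% at day 0, 0.0376% to 0.0404% at day 2 and 0.0240% at day 6. In BPK25 it was 0.0343% to 0.0356%, 0.0361% to 0.0371% and 0.0223% to 0.0239% at these days. The DMSO share was thus lower at day 4 than at days 0 and 2, which is part of the difference at day 4. The 57 tested host genes of these RNAs had a median of -0.03, 22 of them rising and 22 falling. For 103 of 116 pairs the small nucleolar RNA had the larger fold change. Several share 1 host, Gas5 or Snhg1 for example, and the molecule is labelled polyadenylated RNA, whereas mature small nucleolar RNAs carry no poly(A) tail. Genes annotated as still to be experimentally checked, often single-exon stretches, rose in 96 of 218 and fell in 12. Protein-coding genes also differed by length, with a median of -0.18 in the shortest decile, of transcripts up to 1396 bases, and 0.16 in the longest, of at least 6840 bases. In IAA against DMSO of day 4 these medians were -0.17 and 0.16. The part of RNA processing or quality in the other results was not tested beyond the removal of the length trend.

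**Figure D4:**
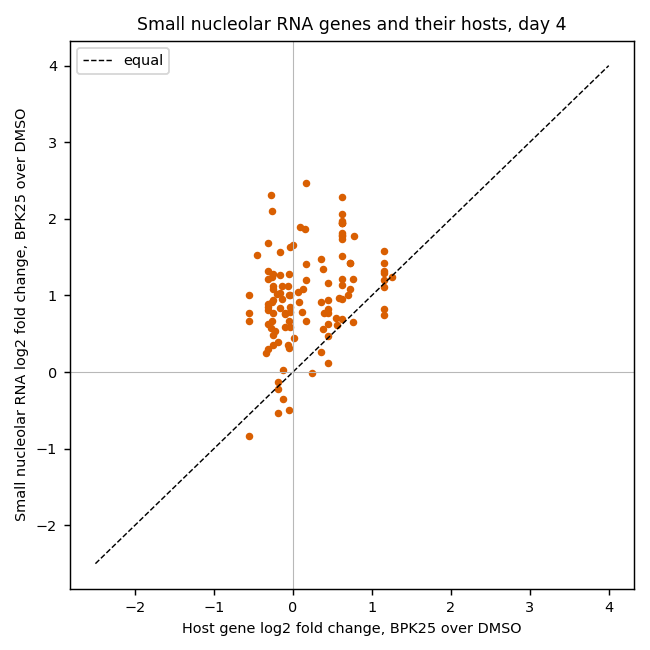
Log2 fold change in BPK25 over DMSO at day 4 of each tested small nucleolar RNA gene (y axis) against that of its host gene (x axis), for 116 pairs. The dashed line marks equal values, and 103 points lie above it.

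Whether the libraries labelled BPK25 differed from DMSO by another amount at day 4 than at other days was tested gene by gene as the log2 fold change of day 4 minus the mean of those of days 0, 2 and 6. This difference was positive for 4040 genes (23.2%) and negative for 4169 (24%). The day 4 values enter both this difference and the comparison with DMSO above, so the 2 sets of calls are not independent. Tagln gave 0.19, 0.05, 4.32 and 0.51 at days 0, 2, 4 and 6. Slc30a1 gave 0.05, -0.14, 2.15 and -0.21, and Lama1 gave -0.09, -0.13, -1.66 and -0.18 on the same scale. For each of these genes the day 4 value was the farthest from 0. They were named for large changes at day 4, so that choice favours this outcome. Some integrated stress genes passed the test at all 4 days. Aldh1l2 gave 0.46, 0.64, 1.11 and 0.61, and Mthfd2, another mitochondrial folate enzyme gene, gave 0.42, 0.27, 0.45 and 0.19.

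**Figure D5:**
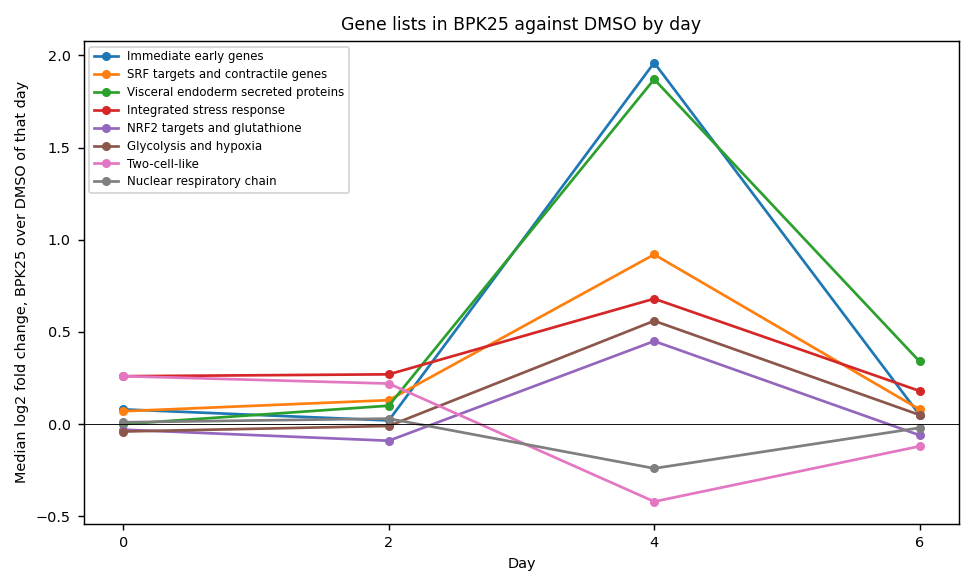
Median log2 fold change in BPK25 over DMSO of the same day (y axis) at days 0, 2, 4 and 6 (x axis) for 8 gene lists chosen after their values were seen, 1 line each. Immediate early genes stand at 1.96 at day 4 and the two-cell-like genes, which a rare early state expresses, at -0.42.

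Against IAA of the same day, BPK25 was higher for 4729 genes (27.2%) and lower for 4721 (27.1%). Both comparisons use the same BPK25 libraries, so their values are set side by side. Of the genes at least 2-fold higher in BPK25 than in DMSO, 680 were also higher than in IAA, 341 did not pass against IAA and 60 were lower. Of those at least 2-fold lower than in DMSO, 383 were also lower than in IAA, 277 did not pass and 26 were higher. Cyp1a1 had 2038 counts over the BPK25 libraries and 3 over the IAA libraries, a pooled rate 761-fold higher with an exact 95% interval of 260 to 3691. Cavin1 averaged 197 ± 16 CPM in BPK25 and 23.1 ± 2.1 CPM in IAA, and Slc30a1 averaged 73.8 ± 2.80 CPM in BPK25 and 12 ± 1.16 CPM in IAA. Dusp5 averaged 69.8 ± 5.14 CPM in BPK25 and 17.9 ± 0.976 CPM in IAA. These 4 genes were higher in BPK25 than in either IAA or DMSO. Igf2 was lower in BPK25 than in IAA and averaged 25.8 ± 0.971 CPM in BPK25 and 410 ± 1.78 CPM in IAA, and of the visceral endoderm secreted proteins 6 were higher in BPK25 than in IAA, 4 were lower and 8 did not pass. Lama1, at 415 ± 1.31 CPM in BPK25 and 1877 ± 8.86 CPM in IAA, and Fst, at 4.54 ± 0.967 CPM in BPK25 and 15.4 ± 1.36 CPM in IAA, were lower in BPK25 than in both other groups.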

How the data were processed

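A SMARTer mRNA-seq kit was used on polyadenylated RNA, per the labels' protocols. The submitters' processing notes name FastQC 0.11.7, HISAT2 2.1.0, featureCounts 2.0.1, DESeq2 and the mm10 genome. Strand setting and annotation: not given in the sources used here. Reads of overlapping genes can therefore not be told apart. The authors deposited raw counts for each gene in a single table, per the file headers, with 1 column for each of 36 libraries, whose groups came from the labels.

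The filter was filterByExpr with a minimum count of 10 and a minimum total of 15 over the 12 groups. Counts were scaled by TMM, CPM used the scaled totals, and all libraries entered 1 edgeR quasi-likelihood fit of group means, two-sided, with Benjamini-Hochberg adjustment over all 17394 genes tested. Approximate standard errors were the absolute log2 fold change over the root of F. For genes with 1 to 3 counts in a group, rates were pooled and their ratio has an exact interval for counting error alone. The tools were edgeR 4.0.16 and DESeq2 1.42.0 under R 4.3.3. Counts were simulated for BPK25 against DMSO at day 4 over 17394 genes, of which 200 were changed. The test found 46% of 50 genes changed 1.25-fold, 70% at 1.5-fold, 84% at 2-fold and 100% at 4-fold, and 3.85% of its calls were false. In the data 4562 genes were called higher and 4654 lower, far more than were changed here, so these rates do not carry over to those calls. Positions, lengths and exon overlaps came from GENCODE M21 on GRCm38, which held 99.7% of the gene IDs.

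The gene lists and the named genes were chosen with earlier results of these data known. Named genes had an adjusted p under 0.05, a mean of 5 CPM or more in BPK25 or DMSO, 3 BPK25 libraries that did not overlap the 3 DMSO libraries and no clone name as symbol. Of these, the 12 at each end of the log2 fold change and the 5 at each end of the day difference were taken. From each list described, up to 6 called members of at least 5 CPM with the largest changes and up to 2 abundant members that did not pass were eligible. Ctcf, the NuRD genes, Ahr, Pou5f1, Sox2 and Nanog were always eligible. Not all eligible genes or lists are described. Gm48529 was added after its values were seen. The alternatives tried were DESeq2's Wald test, RLE scaling, testing without a filter or with a stricter one (1 CPM in 3 libraries), fewer libraries in the fit, a replicate block, omitting each library once and, added after seeing the data, removal of each library's trend on transcript length.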

Additional observations from a re-analysis of the deposited data

Results flagged for a closer look

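The effect of BPK25 at day 4 differed from its mean effect over days 0, 2 and 6 for many genes by edgeR's quasi-likelihood test of that difference, 4040 upward and 4169 downward. The 5 highest differences among named genes were 6.75 for Colec11, 5.47 for Cyp1a1, 4.75 for Afp, 4.62 for Ccn1 and 4.16 for Ankrd1 on the log2 scale. The 5 lowest were -7.57 for Gkn1, -7.16 for Gkn2, -4.63 for Trpc5os, -4.09 for Mucl3 and -3.54 for Fam167a. For Colec11 and Gkn1, 1 of the groups of day 4 held 3 counts in all, so the fitted size is imprecise. The BPK25 libraries of day 4 also differed widely for Colec11. Its log2 fold change over DMSO at day 4 was 6.19 with all libraries and 4.21 without BPK25 replicate 1.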

How the results depend on the processing

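Each of the 8 counts of genes stayed within 1.5 times its value under every alternative run. Over the settings that keep all libraries of the groups compared, 4129 to 4567 genes were higher and 4256 to 4778 lower in BPK25 than in DMSO, and 924 to 1359 and 534 to 739 changed at least 2-fold. Leaving out 1 library gave 4130 to 4336 higher and 4221 to 4416 lower genes, 3655 to 3828 and 3758 to 3994 day differences, and 4237 to 4403 higher and 4327 to 4494 lower genes against IAA. Deviations of same-numbered BPK25 and DMSO libraries had correlations of -0.050, -0.012 and -0.030. For BPK25 and IAA of day 4 these were 0.080, 0.031 and 0.0017. The labels do not say what a replicate number marks, so these values do not settle whether the numbers pair the samples. With the replicate block, 4545 genes were higher and 4643 lower. Removing the length trend gave 4316 and 4778. Under that setting Chd4 (-0.12), Pou5f1 (0.12), Sall1 (-0.14) and Amotl1 (-0.25) passed the test, which they do not otherwise pass with all libraries, and Chd3 (0.07), Mbd3 (-0.08) and Cdk2ap1 (-0.11) no longer did. No named gene in the text changed direction under any alternative while called. Totals of 6769688 to 11983431 counts limit what can be seen for genes under a few CPM.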
